A study of Drosophila melanogaster with 2 samples.

Results

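Autosomal promoter peaks of the fly protein CG8478 that lack the core of the DNA replication-related element (DRE) made up 459 of the 2904 peaks called from both replicates together on the main chromosome arms. Each has its summit on an autosome within 500 bp of the start site of a protein-coding gene, away from divergent pairs of genes whose starts lie at most 500 bp apart. Within 100 bp on either side of its summit, here the summit window, neither strand holds TATCGA, the first 6 bases of the 8 bp DRE. They are called the members here. The nearest class, set beside them throughout, is the 678 autosomal single promoter peaks whose summit windows do hold that core. The other peaks lay at divergent promoters (764), at promoters on X (510) or over 500 bp from every protein-coding start (493).

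The peaks come from chromatin immunoprecipitation and sequencing (ChIP-seq) with an anti-GFP antibody on whole embryos aged 0 to 24 h. The flies are transgenic and express CG8478 fused to eGFP, so every value is of the tagged protein, averaged over all embryonic cell types and stages. Chromatin was sonicated to 200 to 800 bp. There was 1 group, with 2 biological replicates, and no second condition. A control experiment that the labels name was not analysed here.

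The DRE is a palindrome found at many promoters of constitutively used fly genes, where the factor Dref binds it. The insulator protein BEAF-32 recognises CGATA, which the palindrome holds on both strands and which can also stand alone. Other promoters of such genes carry different elements, among them Motif 1, which is bound by the zinc finger factor M1BP, and the motifs numbered 6 and 7 by Ohler from a search of fly promoters.

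The sequences that the results turn on are shown here, upstream of the start site in the direction of transcription, from the Release 6 genome (dm6). In the first set, capitals mark CGATAG, or its reverse complement CTATCG, in CG15160, TTLL4A, CG17129 and Rap1, and CGATA, or TATCG, in viaf. These were among the highest members with such a site for which the stretch holds no annotated exon. Every stretch printed in either set lies on the left arm of its chromosome. Higher members on right arms, such as Sec61beta, are not shown. The stretches lie at chr2L:18590771-18590890 and chr2L:10989281-10989400 on the plus strand, and at chr3L:680327-680435, chr3L:1862240-1862359 and chr3L:11993180-11993273 on the minus strand. Each ends at the base before the start site, and only sites inside the summit window are in capitals.
CG15160: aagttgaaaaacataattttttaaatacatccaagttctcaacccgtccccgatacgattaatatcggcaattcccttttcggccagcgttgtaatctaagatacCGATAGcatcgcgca
TTLL4A: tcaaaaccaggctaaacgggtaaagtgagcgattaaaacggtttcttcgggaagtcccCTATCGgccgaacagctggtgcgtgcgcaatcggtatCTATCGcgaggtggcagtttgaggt
CG17129: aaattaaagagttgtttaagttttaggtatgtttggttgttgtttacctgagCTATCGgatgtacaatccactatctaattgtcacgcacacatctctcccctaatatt
Rap1: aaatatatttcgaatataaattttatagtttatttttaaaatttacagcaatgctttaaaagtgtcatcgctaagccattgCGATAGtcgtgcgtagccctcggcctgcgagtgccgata
viaf: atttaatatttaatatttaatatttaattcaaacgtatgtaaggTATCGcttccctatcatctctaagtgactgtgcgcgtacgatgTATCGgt

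The second set shows the other elements that were more frequent at the summits than beside them. Capitals mark Ohler 7 (CAKCNCTR, where K is G or T and R is A or G) in msl-1 and osi, Motif 1 (GGTCACAC, here as its reverse complement) in Nse1, Ohler 6 (GGTATTTT) in RtcB and the B box in Fkbp59. The summit windows of msl-1, osi and Nse1 hold no CGATA. frtz is among the higher members near their start with none of these elements and no CGATA, and has no capitals. These stretches lie at chr2L:19430523-19430642 and chr2L:9887885-9888004 on the plus strand, and at chr2L:18688801-18688920, chr2L:16887967-16888086, chr2L:6677626-6677745 and chr2L:1715852-1715971 on the minus strand.
msl-1: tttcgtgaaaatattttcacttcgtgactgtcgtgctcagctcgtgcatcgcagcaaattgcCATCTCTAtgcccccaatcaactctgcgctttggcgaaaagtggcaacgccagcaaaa
osi: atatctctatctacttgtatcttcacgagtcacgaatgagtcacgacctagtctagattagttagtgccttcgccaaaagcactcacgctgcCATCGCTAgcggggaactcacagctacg
Nse1: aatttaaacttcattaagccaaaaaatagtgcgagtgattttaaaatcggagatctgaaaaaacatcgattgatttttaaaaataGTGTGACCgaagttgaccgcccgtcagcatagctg
RtcB: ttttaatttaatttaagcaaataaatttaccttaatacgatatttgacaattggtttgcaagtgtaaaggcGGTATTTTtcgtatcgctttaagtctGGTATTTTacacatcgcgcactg
Fkbp59: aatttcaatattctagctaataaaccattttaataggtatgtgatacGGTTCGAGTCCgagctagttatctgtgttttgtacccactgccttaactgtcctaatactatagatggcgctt
frtz: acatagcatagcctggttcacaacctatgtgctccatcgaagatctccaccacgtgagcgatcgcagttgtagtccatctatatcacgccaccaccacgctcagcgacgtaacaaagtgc

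The members were weak peaks as a class. Their median signal was 75.6 (interquartile range 57.6 to 141, highest 833), against 189 (107 to 307, highest 1252) for the peaks with the core, a ratio of medians of 0.401. In the upper 50% of all peaks by signal the ratio was 0.872. That cut is made on the signal itself, so both medians are taken over a narrower range. The signal is the authors' value for each peak, without a stated scale, and serves here to rank and describe peaks. In the comparison of the replicates each peak also has a signal from both inputs, 1 per replicate. Over the members the medians of these were 46.1 and 40.1, against 98.1 and 90 for the peaks with the core. Spearman's rho between the inputs, given as a description over peaks that were chosen for repeating, was 0.69 over 459 members and 0.88 over 678 peaks with the core. At the edge of the rule, 21 members with a summit over 400 and up to 500 bp from a start had a median signal of 73.4, and 14 peaks lacking the core at over 500 and up to 600 bp had 77.7.

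Part of the weak end consists of entries that overlap a stronger peak of the same list. Of the members, 58 (12.6%) did so, against 14 (2.06%) of the peaks with the core. Aprt, the gene of adenine phosphoribosyltransferase, shows such a pair: its peak of 149.49 with inputs of 63.78 and 73.41 is overlapped by an entry of 2.67 that carries the same inputs. The stronger peak's summit lay a median of 204 bp away, and in 35 of the 58 cases its summit window held the core. Of the 48 members under a signal of 30, 46 were of this kind. Without these entries the median signal of the members was 83, against 192 over 664 peaks with the core. In addition, 62 members (13.5%) held the core elsewhere in the peak, outside that window. Among the highest, these were eIF3c, RpL26 and MFS15. The 397 members with no core anywhere in the peak had a median signal of 77.6.

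Fewer members were found again in each replicate alone. Of the members, 202 (44%, 95% Wilson interval 39.5 to 48.6) were matched by a peak of replicate 1's list and by one of replicate 2's, against 530 of the peaks with the core (78.2%, 74.9 to 81.1), a difference of -34.2 percentage points (two-sided Fisher's exact test, p = 4.48e-32). Neither list held 143 members (31.2%), against 55 peaks with the core (8.11%). The share did not rise steadily with the signal. With the members cut into 4 near-equal parts by signal, it was 23.5%, 6.14%, 48.7% and 97.4%, from the lowest to the highest. Of the 58 members that overlap a stronger peak, with a median signal of 13.2, 30 (51.7%) were in both lists. Whether they were matched through that stronger peak was not tested. The next shares include such entries, so near-equal shares under 100 need not hold without them. Under a signal of 100 the share was 18.5% of 292 members and 19.6% of 148 peaks with the core. From 100 to 200 it was 79.8% of 94 members and 88% of 216 peaks with the core, and above 200 it was 73 of 73 members and 311 of 314 peaks with the core. In the upper 50% of all peaks by signal the difference was 0.631 points (Fisher's exact test, p = 1).

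The members lay less tightly around the start. Their median summit position was -31 bp from the start, and 59.9% (55.4 to 64.3) were within 100 bp of it, against -37.5 bp and 87.5% (84.8 to 89.7) for the peaks with the core. Upstream of the start were 62.5% of the members and 84.2% of the peaks with the core. The GC content of the summit window had a median of 43.8% in the members and 37.8% in the peaks with the core. Higher member signal went with lower GC (Spearman's rho -0.30 over 459 members), while over the peaks with the core rho was -0.02. On chromosome arms 2L, 2R, 3L and 3R there were 111, 127, 113 and 107 members, and chromosome 4 had 1, against 142, 164, 157, 204 and 11 peaks with the core.

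A CGATA site went with signal among the members. By the rule none of these sites can be preceded by T, since that would complete the core. The summit window held CGATA on either strand in 162 members (35.3%, 31.1 to 39.8), against 98 of their flanks (21.4%, 17.8 to 25.3), windows of the same length centred 1000 bp to the right. The site is common: 38.5% of 11749 autosomal promoter windows of that length held it, and 18.8% of the single promoters that lack the core and have no peak. Members with CGATA had a median signal of 122, against 68.3 for the 297 without. With 1 site the median was 102 (106 members), with 2 sites 183 (39 members) and with 3 or more 216 (17 members). Members with CGATA lay nearer to the start and had a lower GC content: 75.9% of them were within 100 bp, against 51.2% of those without, and the median GC content was 41.3%, against 45.8%. The part of position and GC content in the signal was not tested.

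The base after the site differed between members and promoters without a peak. A G followed 39.3% of the 239 sites in members, against 16.5% of the 1422 sites at single promoters lacking the core and without a peak. In members at or above their median signal G followed 44.6% of 186 sites, and in members below it 20.8% of 53. The extended site CGATAG was chosen for this from the 8-mer search given further on, so its values are a description. It was present in 84 members (18.3%, 15 to 22.1), against 28 flanks (6.1%, 4.25 to 8.68), and in 15.2% of all promoters and 3.42% of those lacking the core without a peak. Of the peaks with the core, which can hold it within their DRE, 70.2% had it.

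Members with CGATAG had a median signal of 187 (interquartile range 106 to 285), close to the 189 of the peaks with the core. The 78 members with CGATA but no G after it had 89 (65.6 to 161), and the 297 without CGATA had 68.3 (54.5 to 94.4). The ratio of the first to the last was 2.74. Among peaks in the upper 50%, a cut made on that same signal, it was 1.24. Both inputs had this order, with medians of 91.7, 54.1 and 39.8 in the first input and 93.4, 42.9 and 36.1 in the second. Of the members with CGATAG 76.2% (66.1 to 84) were in both replicates' own lists, against 34% (28.9 to 39.6) of those without CGATA. Among members that overlap no stronger peak the medians were 200 with CGATAG and 72.7 without CGATA. Where the core was absent from the whole peak they were 190 over 79 members and 69 over 251.

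**Figure D1:**
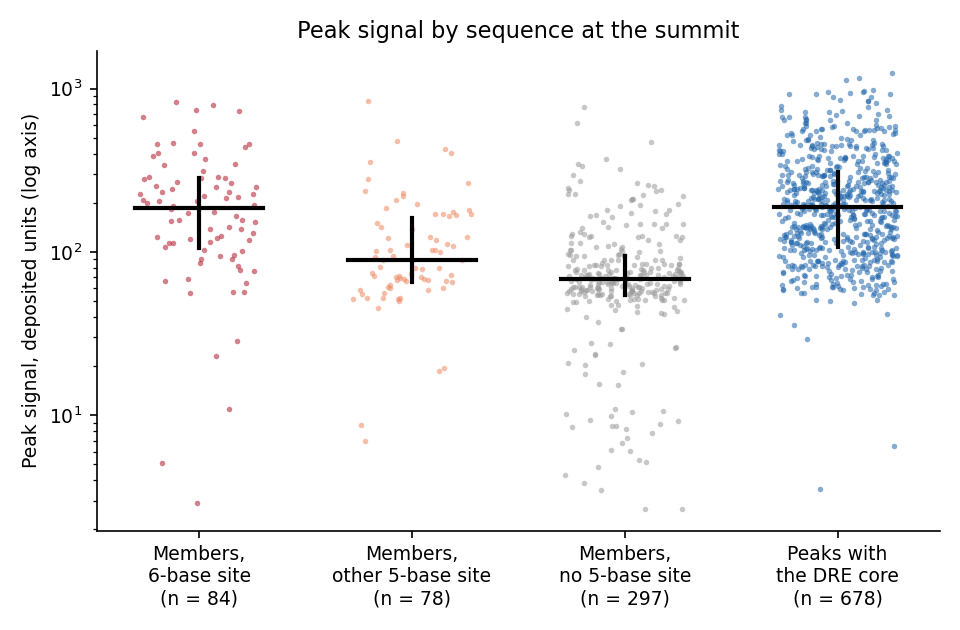
Peak signal of every member and of the peaks with the DRE core, on a log axis, by the sequence in the summit window: the 6-base site is CGATAG and the 5-base site CGATA. Each point is 1 peak, horizontal lines are medians and vertical bars interquartile ranges; the members with CGATAG centre at 187, those without CGATA at 68.3 and the peaks with the core at 189.

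The extended site lay at the summit. In the summit windows 94 such sites had a median distance of 25 bp from it, and 50% were within 25 bp. This was not particular to the extended site. All 239 CGATA sites, these included, had a median distance of 32 bp, with 43.1% within 25 bp. Within that distance were 30% of 130 Ohler 7 sites, 20% of 35 Motif 1 sites and 32% of 25 Ohler 6 sites. Relative to the start the CGATAG sites had a median position of -46.5 bp (interquartile range -73.5 to -11). They faced either way: 52.1% were on the gene's strand. The other elements were mostly on the gene's strand, with 70.8% of Ohler 7 sites, 68.6% of Motif 1 sites and 76% of 25 Ohler 6 sites.

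**Figure D2:**
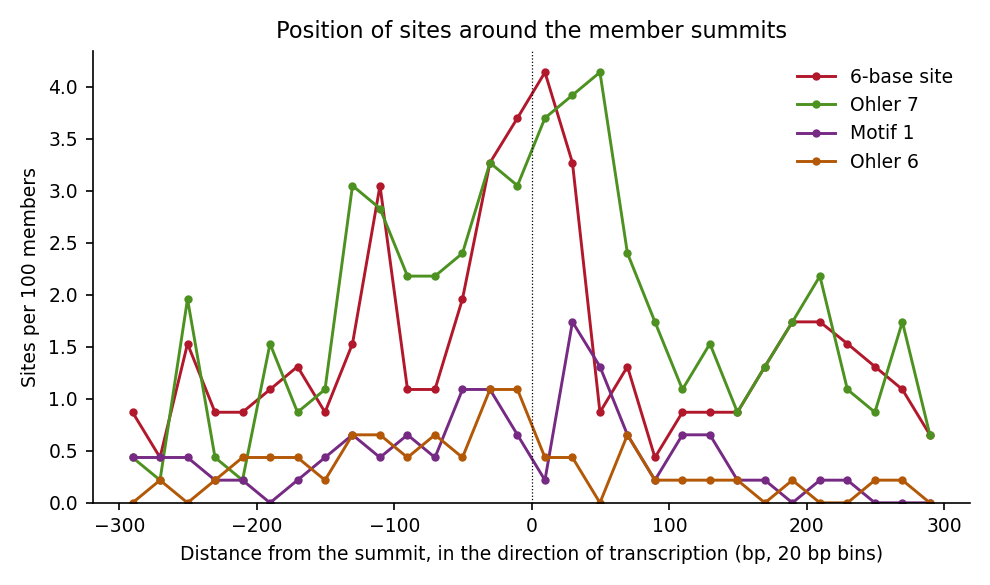
Sites per 100 members in 20 bp bins around the summit, from 300 bp before to 300 bp after it in the direction of transcription; the 6-base site, CGATAG, peaks at the summit, where 50% of the sites of the summit window lie within 25 bp. The rule bars the core within 100 bp of the summit only, so bins farther out can count CGATAG inside a core. The bin from -120 to -101 bp held 14 CGATAG sites, and that from -100 to -81 bp held 5.

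The 20 highest members that overlapped a peak of both replicates had signals of 400.54 to 832.97. CGATA was present in 17 of them and CGATAG in 13, and Ohler 7 in 11. The 3 without CGATA, at CG30015, CG30349 and msl-1, all held Ohler 7. First was eIF3c, a subunit of translation initiation factor 3, with 832.97 (inputs 462.22 and 362.18) and a summit 17 bp upstream of the start; its summit window held CGATA and Ohler 7. CG15160 followed with 824.56 (inputs 407.09 and 424.67), and its 3 CGATA sites include the CGATAG printed for it. Sec61beta, a subunit of the channel that moves proteins into the endoplasmic reticulum, had 789.95 (369.72 and 432.94), with its peak at chr2R:14618529-14618868. CG30015 had 769.11 (350.05 and 398.59) with Ohler 7 and no CGATA. The inputs of these 4 peaks were close to each other.

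RpL26, a protein of the large ribosomal subunit, had 742.74 with inputs of 357.93 and 378.97, and unlike most its summit lay downstream of the start, by 94 bp. Rpn10, the ubiquitin receptor of the proteasome, had 731.62 (389.24 and 339.90). TTLL4A, of the tubulin tyrosine ligase-like family, had 673.11 (300.61 and 370.90), with both its CTATCG sites in the printed stretch. CG30349 had 610.91 (303.62 and 314.02). RtcB, the tRNA ligase, had 551.25 (282.39 and 267.34) and 4 CGATA sites. Sik3, a salt-inducible kinase, had 475.64 (230.91 and 249.23) at 189 bp downstream.

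The other 10 lay between 400.54 and 468.29. The highest of them, msl-1, the scaffold of the dosage compensation complex, had 468.29 (214.72 and 265.31). The replication inhibitor geminin had 462.43, CG17129 459.90, the mitochondrial enzyme subunit Idh3b 458.07 and the small GTPase Rap1 456.03. Idh3b and Rap1 were higher in the second input, with 281.05 and 265.70, against 192.44 and 187.75 in the first. After them came beta-PheRS, of phenylalanyl-tRNA synthetase, with 439.94, viaf with 426.11, CG9044 with 405.69, P58IPK, a co-chaperone of the endoplasmic reticulum, with 404.90, and MFS15, of the major facilitator family of transporters, with 400.54. BEAF-32 itself was a member, with 170.36 (inputs 81.75 and 130.97) and a CGATA site, its summit 23 bp upstream of the start.

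Next, 31 motifs were searched on both strands in the summit window of each member and in its flank. At the summit 4 of them were more frequent (12.9% of those tested, exact McNemar tests, Benjamini-Hochberg threshold 0.05), and 0 were less frequent (0% of those tested; 2 at an unadjusted p under 0.05). Those 4 were Motif 1, Ohler 7, Ohler 6 and the B box. A flank 1000 bp away need not be a promoter, so an element common to promoters in general can pass. At single promoters lacking the core and without a peak, Motif 1 was in 3.92% and Ohler 7 in 7.86%. Ohler 6 was in 3.13% of those promoters and the B box in 0.0895%. The core and CGATA were left out of these tests. Of the flanks, 39 held the core, which the summit windows lack by the rule.

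Ohler 7 was the most frequent of the 4. It was in 99 members (21.6%, 18.1 to 25.6), against 34 flanks (7.41%, 5.35 to 10.2; two-sided exact McNemar test, adjusted p = 2.59e-08), and in 15% of all promoters. Its members had a median signal of 139. With CGATA as well, 52 members had a median of 185, and without it 47 had 93.4. Its highest members were eIF3c, CG30015 and CG30349, given above.

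Motif 1 was in 36 members (7.84%, 5.72 to 10.7), against 3 flanks (0.654%, 0.223 to 1.9; exact McNemar test, adjusted p = 5.59e-07), and in 6.82% of all promoters. The median signal of its members was 74.2, near the 75.6 of all members, and of the 17 without CGATA 62.7. Highest were beta-PheRS, RpS23, of the small ribosomal subunit, with 385.19 (inputs 179.04 and 212.08), and jar, myosin VI, with 288.13 (117.90 and 174.19), all with CGATAG. Nse1, printed above, had 169.61, with inputs of 55.54 and 117.27.

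Ohler 6, GGTATTTT, was in 22 members (4.79%, 3.19 to 7.15), against 5 flanks (1.09%, 0.466 to 2.52; exact McNemar test, adjusted p = 0.00941), and in 4.2% of all promoters. Its highest members were RtcB, the mitotic kinase polo with 285.24 (127.23 and 153.80), and CG34021 with 246.47 (158.80 and 83.75). With every peak that holds CGATA taken out of the members, 297 remained and 0 of the 31 motifs passed, while 6 were above and 1 below the flank at an unadjusted p under 0.05. The lowest adjusted p was then 0.054, for Motif 1 and Ohler 7. With fewer members, the log2 ratio of summits to flanks, with 0.5 added to each count, was 2.32 for Motif 1, 1.02 for Ohler 7, 2.32 for Ohler 6 and 2.66 for the B box, against 3.38, 1.53, 2.03 and 2.94 over all 459. frtz, a planar polarity gene printed above with none of the 4 elements, had a signal of 219.07 (inputs 128.06 and 100.35). Among peaks in the upper 50% by signal Ohler 7 passed and the other motifs did not. In replicate 2's list alone Ohler 6 and the B box did not pass (exact tests, adjusted p = 0.464 and 0.242), nor in replicate 1's list alone (0.0727 for both).

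The B box, an internal promoter element of tRNA genes, was in 11 members, against 1 flank (exact McNemar test, adjusted p = 0.0151), in 0.111% of all promoters and in 0 of 678 peaks with the core. Of these 11 members 7 had a tRNA start within 500 bp of the summit, as did 15 members in all. These 15 had a median signal of 153, lay a median of 314 bp upstream of the protein-coding start, and held no CGATA. Their inputs were unequal: the first was the higher in 14 of the 15, with a median log2 ratio of 0.90, against 0.09 over the other 444 members. The highest with a B box was CG34021, near histidine tRNA genes. Next was tud, near glycine and tryptophan tRNA genes, with 179.68 (136.24 and 51.52), and then the flippase gene ATP8A, near an isoleucine tRNA gene, with 177.01 (110.55 and 59.21). Fkbp59, printed above, had 102.07 (67.33 and 38.21) and no tRNA start within 500 bp. Without the 15, the B box was in 4 members and 0 flanks (exact McNemar test, adjusted p = 0.306), and the other 3 motifs passed.

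Several promoter elements were not called in either comparison. The E-box CAGCTG (Ohler 5) was in 15.3% of members and 9.59% of flanks (exact McNemar test, adjusted p = 0.0686; 14.5% of all promoters). For Ohler 8, GGCARCGS, the shares were 7.41% and 3.49% (exact test, adjusted p = 0.0686; 4.88% of all promoters). The initiator TCAKTY was in 40.1% and 34.4% (exact test, adjusted p = 0.251; 51.2% of all promoters). YCTTTYY, the TCT element of ribosomal protein promoters, was in 20.9% and 27.7% (exact test, adjusted p = 0.0756; 25.4% of all promoters). CAGGTAG, the site of the early embryonic activator Zelda, was in 2 members and 10 flanks (exact test, adjusted p = 0.133; 1.04% of all promoters). The patterns of Pho, ETS factors, ewg, E2F, HSF, GATA factors, Dorsal, Twist, Su(H), homeodomain proteins, Grainyhead, Max and AP-1, and the CRE, CCAAT box and CA repeat, did not pass either.

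**Figure D3:**
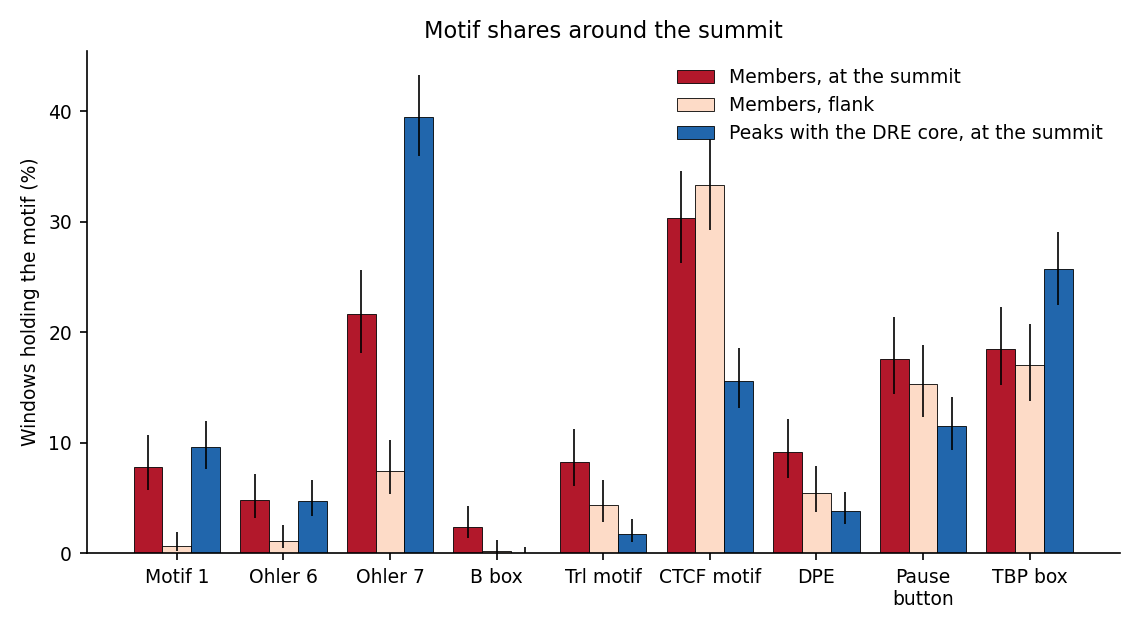
Share of summit or flank windows that hold each motif, in percent with 95% Wilson intervals: 459 member summits, their 459 flanks and 678 summits of peaks with the DRE core. The Trl motif is the GA repeat and the TBP box the site of TATA-binding protein; Motif 1, Ohler 6, Ohler 7 and the B box are above the flank, and Ohler 7 is at 21.6% in members and 39.5% in peaks with the core.

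The search was widened to every 8-mer held by at least 10 windows. Of 4012 tested, 9 were more frequent at the summit than in the flank (0.224%, exact McNemar tests with Benjamini-Hochberg adjustment) and 0 were less frequent (0%). At an unadjusted p under 0.05 there were 213 above and 69 below. In the upper 50% of peaks by signal 20 passed, 6 of them among the 9. By their letters the 9 fall into 4 groups. AGTGTGAC (29 summits and 0 flanks, exact adjusted p = 1.49e-05), GGTCACAC and CGGTCACA overlap Motif 1. CATCTCTA (32 and 1, exact adjusted p = 1.59e-05) and AGAGATGG belong to Ohler 7 or overlap it, and members with CATCTCTA had a median signal of 207. AACTATCG (31 and 2, exact adjusted p = 1.31e-04) and ACTATCGC (28 and 3, exact adjusted p = 0.0013) hold CTATCG, and their members had medians of 207 and 217. TTCAAAAA (30 and 4) and AAAAAAAT (49 and 17) are rich in A. Of all promoters 5.78% held AGTGTGAC, 2.03% CATCTCTA and 2.72% AACTATCG.

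By signal, the members fell into different mixtures. With the members ranked by signal and cut into 4 near-equal parts, from the lowest to the highest, CGATAG was in 6.96%, 2.63%, 19.1% and 44.3% of members. For Ohler 7 the shares were 7.83%, 11.4%, 26.1% and 40.9%. Motif 1 stayed between 6.09% and 8.77%. The GA repeat GAGAGAG ran the other way, with 14.8%, 11.4%, 5.22% and 1.74%. The lowest part, 115 members under a signal of 57.6, takes in the 48 members under 30, of which 46 overlapped a stronger peak.

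**Figure D4:**
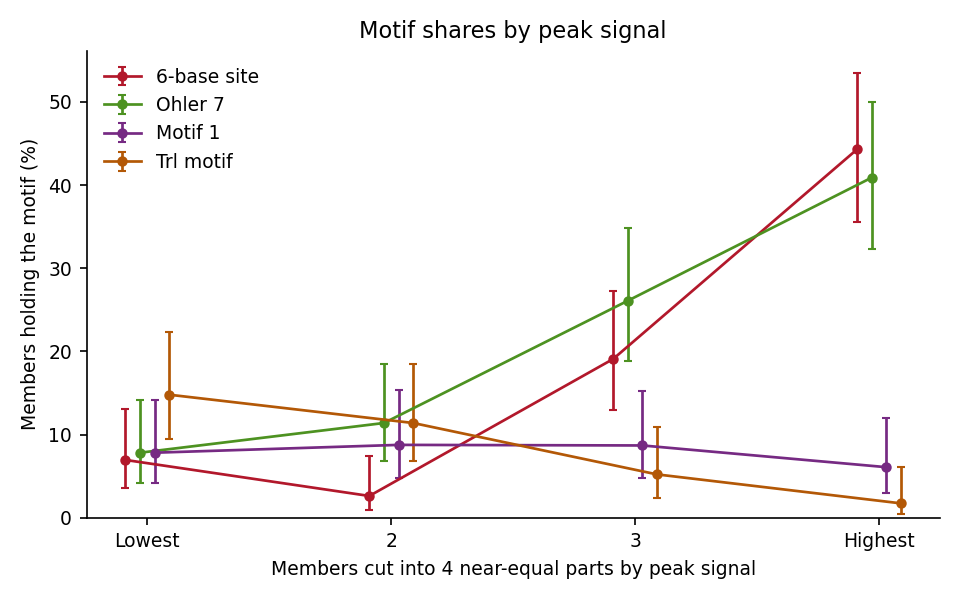
Share of members that hold CGATAG (6-base site), Ohler 7, Motif 1 or the GA repeat (Trl motif), with the members cut into 4 near-equal parts by signal, and with 95% Wilson intervals. CGATAG reaches 44.3% and Ohler 7 40.9% in the highest part, and the GA repeat 14.8% in the lowest. The lowest part takes in 46 members under a signal of 30 that overlap a stronger peak.

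Set against the peaks with the core, 5 of the 31 motifs were more frequent in the members (16.1% of those tested) and 2 less frequent (6.45%; two-sided Fisher's exact tests, Benjamini-Hochberg threshold 0.05). GAGAGAG, the site of the GAGA factor Trl, was in 38 members (8.28%), against 12 peaks with the core (1.77%; exact test, adjusted p = 2.11e-06), and in 4.38% of all promoters. Against the members' own flanks it was not called (20 flanks, 4.36%, exact McNemar test, adjusted p = 0.0769). Its members had a median signal of 61.2 and a median GC content of 52.5%. Of them 26.3% were in both replicates' own lists and 52.6% in neither, against 44% and 31.2% of all members. Highest were Df31, a chromatin protein gene, with 341.93 (inputs 149.22 and 189.19), the cadherin gene kug with 226.69 (170.15 and 51.65) and the nuclear receptor gene svp with 125.96 (70.33 and 54.62). The inputs of kug were far apart.

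The CTCF pattern GGNGGC was in 139 members (30.3%), against 106 peaks with the core (15.6%; exact test, adjusted p = 8.23e-08), and in 20.3% of all promoters. It is rich in G and C, as the members' windows were, and the part of GC content was not tested. At the summit it was no more frequent than in the members' own flanks (33.3%, exact McNemar test, adjusted p = 0.591). The downstream promoter element (DPE), RGWCGTG, was in 9.15% of members and 3.83% of peaks with the core (exact test, adjusted p = 0.00188), and in 5.1% of all promoters. Sec61beta, CG30349 and geminin were its highest members. The pause button KCGRWCG was in 17.6% and 11.5% (exact test, adjusted p = 0.0205; 13.9% of all promoters), and its highest members were Idh3b, CG9044 and polo. The B box (2.4% and 0%) had an adjusted p of 3.35e-04, or 0.109 without the peaks near tRNA starts.

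Ohler 7 was less frequent in the members than in the peaks with the core, with 21.6% and 39.5% (35.9 to 43.3; exact test, adjusted p = 4.10e-09). TATAAA was in 18.5% of members, 25.7% of peaks with the core (exact test, adjusted p = 0.0219) and 32.7% of all promoters. Motif 1 (7.84% and 9.59%) had an adjusted p of 0.753. In the upper 50% of peaks by signal only the B box of these 7 passed. Ohler 7 then had a log2 odds ratio of -0.16 (exact test, adjusted p = 1), and the pause button turned to -0.27. Over 13 alternatives the call for TATAAA was lost in 8, that for the DPE in 5 and that for the pause button in 6. GAGAGAG kept its call in 12, and Ohler 7 and the CTCF pattern in 11 each.

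Seen from the promoters, few that lack the core had a peak. Here a peak is one of any class with its summit within 500 bp of the start. It need not be a member, nor lack the core in its own summit window. Among autosomal single promoters, taken at the most upstream start of each gene, 399 of 7100 lacking the core in their window had a peak (5.62%, 5.11 to 6.18), against 635 of 1506 with the core (42.2%, 39.7 to 44.7). Of promoters lacking the core, those with CGATAG had a peak in 68 of 297 cases (22.9%, 18.5 to 28), those with another CGATA in 7.05% of 1106, and those with none in 4.44% of 5697. Motif 1 was at 16.2% (51 of 314), Ohler 7 at 13.5% (82 of 609) and Ohler 6 at 9.48% (22 of 232). With both Ohler 7 and CGATAG the share was 46.2% (24 of 52, 33.3 to 59.5). The GA repeat was at 5.74% (22 of 383), near that of all promoters lacking the core. Since CGATAG and Ohler 7 were picked out with these peaks in view, the shares are a description.

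**Figure D5:**
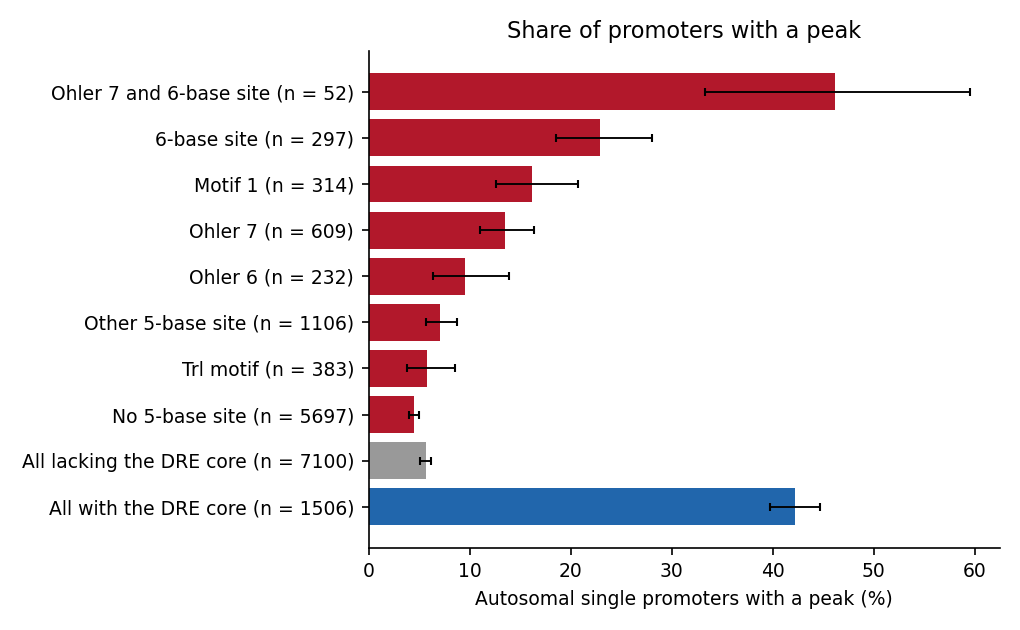
Share of autosomal single promoters with a peak within 500 bp of the start, in percent with 95% Wilson intervals, for promoters lacking the DRE core that hold a given element (red, overlapping classes), all lacking the core (grey) and all with it (blue). The peak can be of any class, so it need not be a member. The 6-base site is CGATAG, at 22.9%, or 46.2% together with Ohler 7, against 5.62% for all lacking the core and 42.2% with the core.

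The members were near the starts of 452 of 11749 autosomal protein-coding genes (3.85%), and the peaks with the core near 707 (6.02%). Both kinds were found at 51 genes. Of the 452 genes, 25.4% had only a CG number as symbol, against 43.2% of all autosomal genes. For each of 21 gene lists, taken by symbol, the count of genes with a member is given beside these shares and without a test. Counts include entries that overlap a stronger peak.

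Genes of protein synthesis and breakdown were among them. Of 78 cytoplasmic ribosomal protein genes 8 had a member (10.3%), from RpL26 and RpS23 down to RpS9 with 57.10, and 11 had a peak with the core. All 8 overlapped no stronger peak, and 5 held CGATA. Of 42 proteasome genes 4 had one, Rpn10 and, with 122.25, Prosbeta7, of the catalytic core, being the highest. Of 49 translation factor genes 4 had one, but after eIF3c and eIF3d1 (52.18) the other 2, eIF6 and eEF5, overlapped stronger peaks. Only AlaRS, with 27.21 and also overlapping, was taken in among 29 aminoacyl-tRNA synthetase genes, since the symbol pattern does not match beta-PheRS. Mitochondrial ribosomal protein genes had 2 of 62, at mRpL9 (69.20) and mRpL36 (54.47).

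Of 74 oxidative phosphorylation genes 6 had a member (8.11%), with ND-13B of complex I at 232.33 (120.48 and 108.41) and COX7C of cytochrome c oxidase at 220.98 (109.22 and 115.01), both with CGATAG. The vacuolar ATPase gene Vha16-1 had 232.68, the only one of 31. Of 83 membrane traffic genes 3 had one, Sec61beta, Sec8 of the exocyst (193.54) and Sec31 (54.47). Drp1, which divides mitochondria, had 130.14, alone among 14 genes of mitochondrial import and dynamics. Ubiquitin pathway genes had 2 of 30, at Usp10 (234.63) and Usp47 (61.68). The chaperone list had 3 of 32, with DnaJ-H (63.48) and CCT8 (54.54) the highest, and DnaJ-1 (28.58) overlapping a stronger peak.

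Of 31 DNA replication genes 5 had a member (16.1%), with geminin followed by Mcm7 of the replicative helicase at 125.24 (66.26 and 37.58). RfC3 and Cdc6 overlapped stronger peaks. General transcription genes had 4 of 49 and 1 with a core peak: Taf4, of TFIID, had 95.16 and the elongation factor gene TfIIS 83.77, and none of the 4 held CGATA. Splicing genes had 2 of 34, Prp8 at 83.06 and Prp39, an overlapping entry, at 25.73. The insulator list had BEAF-32 alone among 21.

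Of 33 patterning and Hox genes 5 had a member (15.2%) and 0 had a peak with the core. Any conservative peak was near 5 of them (15.2%), against 21.5% of all autosomal protein-coding genes. The median signal over the 5 was 75.1, close to the 78 over all genes with a member. The heart determinant tin had 106.68 (inputs 66.70 and 51.96) and was the only one found in both replicates' own lists. bcd, the anterior morphogen, had 100.79 (37.79 and 58.01), abd-A 75.06 (39.29 and 35.15), Dfd 71.79 (37.39 and 37.85) and hry, a pair-rule repressor, 70.01 (38.14 and 37.95). CGATA was present at hry only. No member was near a gene of the nuclear pore (23 genes), Mediator (25), Polycomb and trithorax (24), cuticle protein (110) or chemosensory (199) lists. Any conservative peak was near 14, 11, 9, 0 and 2 genes of these lists, in that order. Of all autosomal protein-coding genes 3.85% had a member, so 0 in a list of 23 to 25 genes is near that share.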

How the data were processed

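ChIP-seq peak lists for 2 biological replicates were used. The deposited lists give, per the file headers, peaks in dm6 coordinates. The signal of each peak is the authors' value, without a stated scale. The lists also hold a −log10 of the irreproducible discovery rate, as deposited by the authors, which enters no value here. Neither the aligner nor the peak caller is given in the sources used here. No read counts were used, so the depth is unknown, and Wilson intervals cover counting error only.

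Of entries that share their ends, the one of higher signal was kept, on the main arms. Start sites came from Ensembl release 115 and sequences from Release 6. Promoter windows were centred 31 bp upstream of each gene's most upstream start. Named genes are the 20 highest members found in both replicates, the 2 highest per gene list and the 3 highest per motif that passed. Other named genes, such as Aprt, the remaining listed genes and those in printed sequences that fall outside this rule, were chosen after their values were seen. The members and lists were chosen with earlier results of these data known. The tests treat peaks as independent. Alternatives changed the list, windows, core, flank and replicates. SciPy 1.17.1 with NumPy 2.4.6 and pandas 2.3.3 ran under Python 3.11.15, with figures by matplotlib 3.10.9.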

Additional observations from a re-analysis of the deposited data

How the results depend on the processing

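The 459 members became 123 in the upper 50% of peaks by signal, 804 with the full DRE as core, 297 with CGATA as core, and 294 to 363 in 1 replicate's own list. The median signal ratio of 0.401 became 0.872 in the upper 50%, 0.436 with summit windows of 200 bp on either side, 0.544 with the full DRE and 0.484 to 0.516 in 1 replicate's list. The 4 motifs above the flank became 1 in the upper 50%, 2 with summit windows of 50 bp on either side, 11 with the full DRE, 0 with CGATA as core, 2 to 3 in 1 replicate's list and 9 with the flank to the left. The 7 motifs that differed from peaks with the core became 1 in the upper 50%, 4 with divergent starts up to 1000 bp apart, 4 with those windows, 3 with the full DRE and 4 to 5 in 1 replicate's list. The pause button turned to -0.27 (log2 odds ratio) in the upper 50%. The share in both replicates' own lists turned to 0.631 points (Fisher's exact test, p = 1) there and ran from -41.1 to -19.3 points under the others. The 9 8-mers became 16 with the flank to the left, of which 7 were among the 9, 20 in the upper 50% and 6 to 11 in 1 replicate's list. The CGATAG ratio of 2.74 became 2.82 in the optimal list, 1.24 in the upper 50%, 2.83 and 2.57 with promoter windows of 250 and 1000 bp, 2.68 with divergent starts up to 1000 bp apart, 2.49 and 2.72 with summit windows of 50 and 200 bp on either side, 3 with the full DRE and 2.39 to 2.41 in 1 replicate's list. Alternatives chosen after seeing the data gave 2.83 without peaks near tRNA starts and 2.56 from the mean of both inputs, and for the median signal ratio 0.453 from that mean and 0.434 without peaks that overlap a stronger one. The upper 50% is a cut on the same signal that the signal ratios compare. The cause of these changes was not tested. No paired comparison of conditions was possible because there is 1 group. The signal has no scale or read count, so levels cannot be compared between lists.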
